A study of Mus musculus with 20 samples.

Results

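Transcript levels of the enzymes that move betaine, methionine and folate-bound one-carbon units were examined in 20 single cells of the mouse inner cell mass. The set held 10 genes, Bhmt, Bhmt2, Mat2a, Mat2b, Ahcy, Mthfd1, Mthfd2, Shmt1, Shmt2 and Gldc, of 18193 genes with a probe set annotated to 1 gene, and was chosen with earlier results of these arrays known. Its members were found by gene symbol, and 9 of the 10 had such a probe set, while Mat2a was not analysed here. Each of the 20 samples was the amplified cDNA of 1 cell from a C57BL/6 blastocyst at embryonic day 3.5, hybridised to 1 Affymetrix mouse array. All 20 cells formed 1 group, with no treatment and no genotype compared. The design text states that trypsin-dissociated cells were taken without selection, 55 in all, and that a PCR screen kept the 50 with Oct4 (Pou5f1) and without Cdx2. The labels do not tie cells to embryos, so embryo and cell cannot be told apart.

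One-carbon metabolism links a pair of cycles. In the methionine cycle, methionine is turned into S-adenosylmethionine, the methyl donor for DNA, RNA, proteins and lipids, and the S-adenosylhomocysteine left behind is split to homocysteine, which is methylated back to methionine either by methionine synthase with a folate methyl group or by BHMT with betaine, the oxidised form of choline. In the folate cycle, carbon taken from serine and glycine is carried on tetrahydrofolate, by parallel enzymes in the cytosol and in mitochondria, and feeds the synthesis of purines and thymidylate. BHMT is best known as a liver enzyme, and in mice it has also been described in preimplantation embryos.

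The promoters of the betaine enzymes and of the serine hydroxymethyltransferases are printed because Bhmt was above the floor in all cells and Bhmt2 in a minority, and because Shmt1 and Shmt2 differed in how evenly they were found. Each is the stretch before the RefSeq transcription start (GRCm38.p6, minus strand in all 4), read 5′ to 3′ and 250 bases long. Bhmt lies at chr13:93637759-93638008, Bhmt2 at chr13:93674303-93674552, Shmt1 at chr11:60811266-60811515 and Shmt2 at chr10:127522445-127522694. Capitals mark AGGTCA, the core letters of many nuclear receptor sites, in Bhmt, and GGGCGG, the GC box, in the others, on either strand.
Bhmt: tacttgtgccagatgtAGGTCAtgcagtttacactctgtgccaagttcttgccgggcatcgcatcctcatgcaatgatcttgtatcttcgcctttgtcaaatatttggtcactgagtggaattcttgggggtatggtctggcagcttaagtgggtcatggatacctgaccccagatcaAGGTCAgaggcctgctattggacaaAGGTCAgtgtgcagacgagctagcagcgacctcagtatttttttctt
Bhmt2: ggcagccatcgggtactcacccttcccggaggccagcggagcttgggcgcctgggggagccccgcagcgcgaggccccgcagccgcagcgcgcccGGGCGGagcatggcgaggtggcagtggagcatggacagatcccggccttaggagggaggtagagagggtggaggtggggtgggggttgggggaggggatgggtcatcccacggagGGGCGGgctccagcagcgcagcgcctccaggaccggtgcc
Shmt1: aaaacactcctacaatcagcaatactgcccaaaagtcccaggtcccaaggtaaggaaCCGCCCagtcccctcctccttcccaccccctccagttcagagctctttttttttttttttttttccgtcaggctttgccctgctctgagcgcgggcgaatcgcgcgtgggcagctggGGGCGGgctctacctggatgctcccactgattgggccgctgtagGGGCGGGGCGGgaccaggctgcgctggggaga
Shmt2: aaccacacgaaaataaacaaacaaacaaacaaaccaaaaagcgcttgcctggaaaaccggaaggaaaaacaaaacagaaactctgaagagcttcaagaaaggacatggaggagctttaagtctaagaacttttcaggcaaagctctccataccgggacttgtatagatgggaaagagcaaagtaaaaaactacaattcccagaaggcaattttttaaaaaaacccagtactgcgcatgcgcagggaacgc
In the Bhmt window AGGTCA began at 234, 72 and 47 bases before the start, and 0.131% of 32851 such windows of all genes held at least 3 matches, while 4607 of them held at least 1. The cutoff of 3 is the count of Bhmt itself, taken after several motifs were looked for in the windows of the 10 genes. Ahcy and Mthfd1 also had AGGTCA, at 1 place each. The window of Bhmt2 held GGGCGG at 155 and 40 bases before the start. That of Shmt1 held it at 4 places, 193, 76, 32 and 27 bases before the start, and the matches at 32 and 27 overlap. GGGCGG was in 32.7% of all windows, also in those of Mat2a, Mat2b, Ahcy, Mthfd1 and Gldc, and in none of those of Bhmt, Mthfd2 and Shmt2. G and C made up 48% of the Bhmt window, 74% of the Bhmt2 window, 60% of the Shmt1 window and 40.8% of the Shmt2 window, against a median of 52.4% over all windows. A further motif, TGATGNAA, of the kind bound by ATF4 with a C/EBP partner and present in 3.45% of all windows, was found in no window of the 10 genes. AGATAA was also looked for and found in none of them, and TATAAA was found only in that of Mat2a. These matches are letters in a window and say nothing of a factor's binding. Bhmt, Bhmt2 and Dmgdh, whose enzyme takes the dimethylglycine that BHMT leaves, are consecutive genes on chromosome 13 in the RefSeq order.

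Levels are given as log2 of the quantile-normalised intensity plus a pseudocount of 8.48, and a gene with several probe sets is read from the brightest. A cell counts as having a gene when the level exceeds that array's floor, the 95th percentile over 213 probe sets for transcripts typical of other organs, which lay between 6.63 and 7.10. Levels of different probe sets are not compared with each other. For orientation the cells were clustered on 500 variable genes that included no member, no other one-carbon gene and no lineage marker. This gave 9 epiblast-like cells (1, 2, 7, 9, 12, 13, 14, 18 and 19) and 11 primitive endoderm-like cells (3, 4, 5, 6, 8, 10, 11, 15, 16, 17 and 20). The epiblast gives rise to the embryo proper and the primitive endoderm to extraembryonic endoderm. All 11 measured epiblast markers above the floor in at least 3 cells had the higher mean in the first cluster, and 12 of 14 primitive endoderm markers in the second. Cell 16 went against the name of its cluster, with Fgf4 above the floor and a primitive endoderm score of -1.28, and the assignment of a few cells depended on the clustering. Cell 16 joined the epiblast-like cells when cells were split by Fgf4, or clustered on lineage markers, on the mean of all probe sets or with the floor at the 99th percentile. Cells 6 and 16 did so with the pseudocount from the 40th percentile, and cells 6, 10 and 16 with all named genes, which gave 12 and 8 cells. The other 17 cells kept their side under these settings. Of 13 trophectoderm genes, Elf5, Gata3, Krt7, Krt19 and Atp12a were found in 0 cells, Krt18 in 3, Lgals3 in 5, Eomes in 9, Krt8 in 10, Tfap2c and Tead4 in 13 each, and Hand1 in all 20. Hand1 was even, at 13.67 ± 0.08 (SD) over epiblast-like and 13.72 ± 0.08 over primitive endoderm-like cells. Eomes was found in 2 of 9 epiblast-like and 7 of 11 primitive endoderm-like cells. Their part in the members' levels was not tested. The trophectoderm score ran from -1.52 to 0.80 in the epiblast-like cells and from -0.74 to 0.61 in the primitive endoderm-like cells. The brightest Cdx2 probe set exceeded the floor in 19 cells, though by little (7.31 ± 0.41 in epiblast-like and 7.52 ± 0.28 in primitive endoderm-like cells), although the cells were kept as lacking Cdx2. Pou5f1 was above the floor in all 20.

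Some arrays stood apart. Cells 4, 8, 17 and 20, all primitive endoderm-like, resembled the remaining cells least (mean r from 0.596 to 0.636, against 0.641 to 0.677 in the other 16, across genes, which are not independent replicates). Their score for G2 and M phase genes ran from -3.001 to -1.28, against -0.57 to 1.06 in the other 16 cells. Cell 19 had a median intensity of 14.97, against 25.6 to 30.1 in the others. No test was run between clusters, since the clusters were found from these same cells and the cells are not replicates of a condition. Means, SDs and differences below are descriptions.

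Transcripts of the set were widespread. All 9 measured members were above the floor in at least 3 cells, as were 54.2% of all 18193 genes. Bhmt, Ahcy, Mthfd1, Shmt1 and Gldc were above it in all 20 cells, which held for 16.9% of all genes. Shmt2 was found in 18 cells, Mat2b in 16, Mthfd2 in 14 and Bhmt2 in 7. A single cell had between 6 and 9 of the 9 members, and cells 3 and 13 had all of them. Cells 10 and 19 had the fewest.

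**Figure D1:**
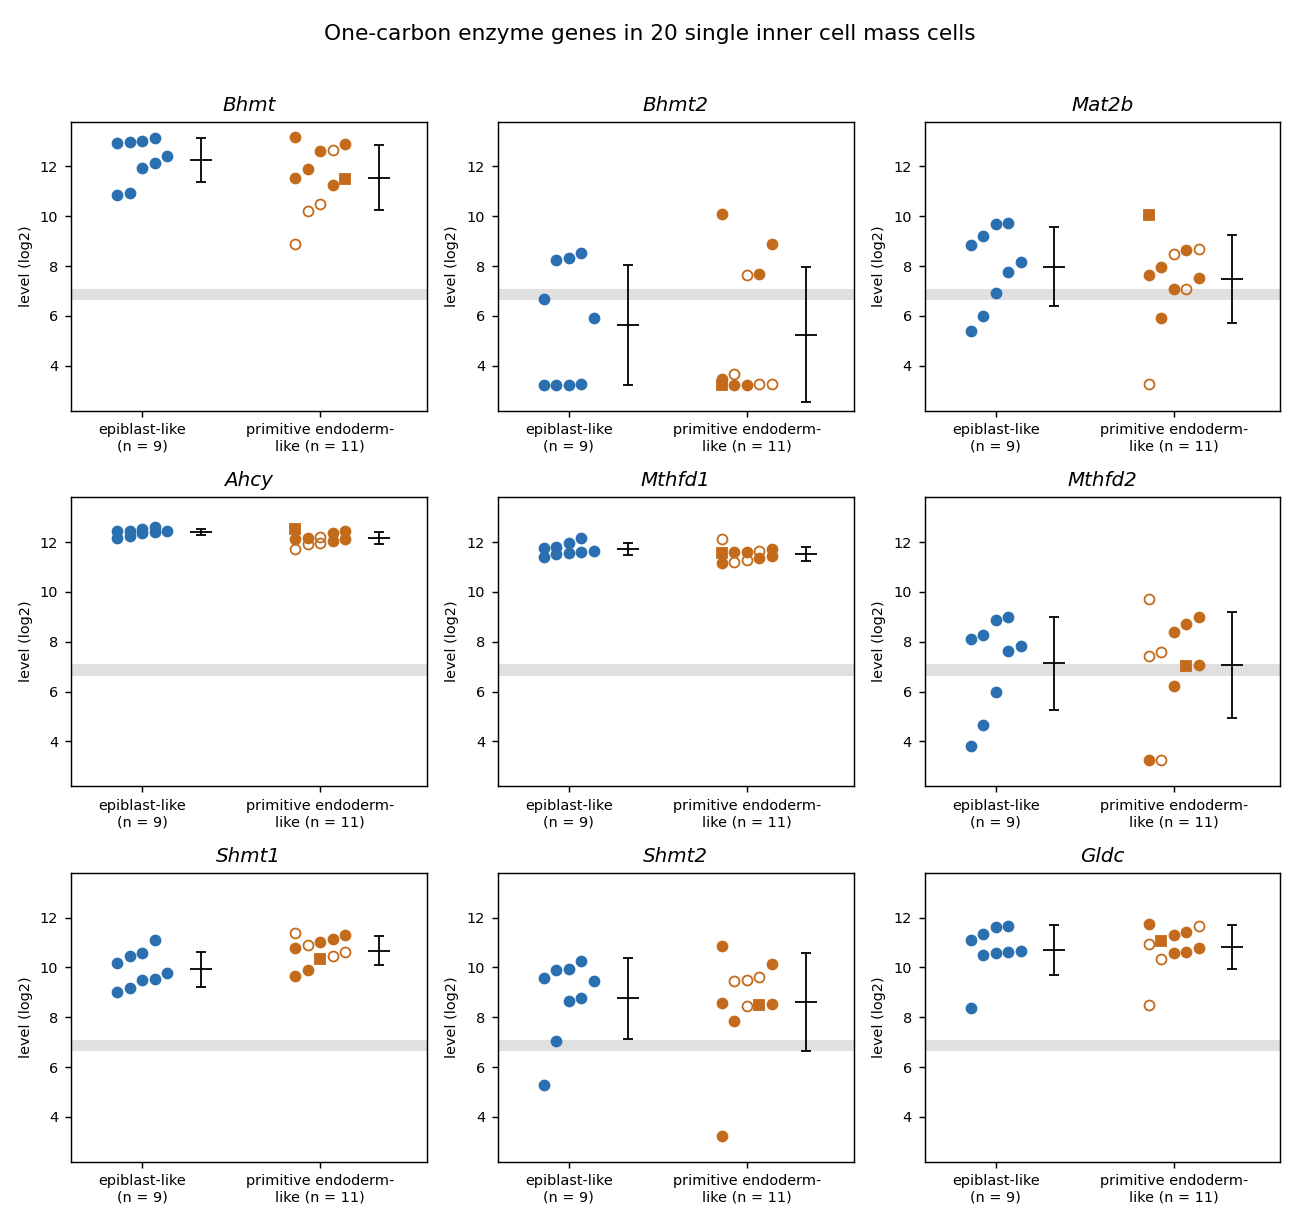
Level of each measured member (log2 of normalised intensity plus 8.48, y axis) in 9 epiblast-like cells (blue) and 11 primitive endoderm-like cells (orange). Each point is 1 cell, the square is cell 16, open circles are cells 4, 8, 17 and 20, black bars give the mean and SD of a cluster, and the grey band spans the floors of the 20 arrays. The clusters overlap for every gene, and Ahcy and Mthfd1 show the narrowest spread.

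Bhmt, betaine-homocysteine S-methyltransferase, was found in every cell but at very unequal levels. Its deposited intensity was lowest in cell 4 at 467, had a median of 4326 and was highest in cell 11 at 9372, a range of 20.1-fold. In the epiblast-like cells the log2 level was 10.85 at the lowest, 12.40 at the median and 13.13 at the highest. In the primitive endoderm-like cells it was 8.87 at the lowest, 11.53 at the median and 13.20 at the highest. High and low cells were present in both clusters, and the epiblast-like range lay inside the primitive endoderm-like one. The SD over the 20 cells was 1.17, and among the 3066 genes above the floor in all cells 1.14% had an SD at least as large, with a median SD of 0.51. Relative to the trend of variance on mean level, its variance was 18.2 times that of genes of similar level, a ratio reached by 0.081% of 9867 genes (those found in 3 cells or more).

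The lowest Bhmt levels were in cells that stood apart. Cells 4, 17 and 20 had 8.87, 10.20 and 10.48, the 3 lowest of all, while cell 8 had 12.66. Without these 4 cells the SD of Bhmt was 0.81, and 13.9% of the same 3066 genes had an SD at least as large over the 16 cells. Epiblast-like cells 14 and 18, which did not stand apart, were also low, at 10.92 and 10.85. The mean was 12.26 ± 0.89 (SD, n = 9) in the epiblast-like cells and 11.55 ± 1.31 (SD, n = 11) in the primitive endoderm-like cells. That difference of 0.70 is within the spread between cells, was 0.43 without cell 4 and 0.13 without the 4 cells. Over the 20 cells Bhmt had r = 0.61 with a cell's mean correlation to the others and rho = 0.35, and r = 0.25 without the 2 cells farthest from the median of Bhmt. Within the 11 primitive endoderm-like cells, which include the 4 that stood apart, r was 0.78 and rho 0.71. Within the 9 epiblast-like cells they were -0.24 and -0.08.

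Bhmt2 encodes the related enzyme that uses S-methylmethionine as methyl donor. Epiblast-like cells 9, 12 and 13 (3 of 9) had it, as did primitive endoderm-like cells 3, 5, 8 and 11 (4 of 11). In those 7 cells the level was highest in cell 3 at 10.10 and lowest in cell 8 at 7.64, and 10 of the 13 others read under 3.5, near the lower limit of the scale. The cells with Bhmt2 were mostly cells with much Bhmt. Bhmt intensity had a median of 8122 (2414 to 9372) in the 7 cells with Bhmt2, against 2946 (467 to 7805) in the 13 cells without it. Over the 20 cells the levels of Bhmt and Bhmt2 had r = 0.60 and rho = 0.57, with r = 0.63 within the 9 epiblast-like and 0.61 within the 11 primitive endoderm-like cells, and r = 0.57 over the 16 cells without cells 4, 8, 17 and 20. This was the highest rho of the 36 pairs of members, and the cells share array, amplification and labelling. Many of the 13 cells without Bhmt2 had the same deposited intensity of 1, read as 3.245 to 3.261. Their order comes from the normalization alone, so each rho with Bhmt2 rests in part on an order without meaning.

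The reading of Bhmt2 depends partly on the probe set. The one used carries the suffix s_at, which Affymetrix gives to probe sets that can match more than 1 transcript. The other Bhmt2 probe set exceeded the floor in 6 cells, all of them among the same 7, and had r = 0.84 with the first. Its r with Bhmt was 0.47 and its rho 0.37. The difference between clusters was 0.38 by the first, or -0.05 with cells split by Fgf4, and -0.84 by the second, each far within the spread between cells (SD 2.41 in epiblast-like and 2.72 in primitive endoderm-like cells for the first), so no direction is given.

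**Figure D2:**
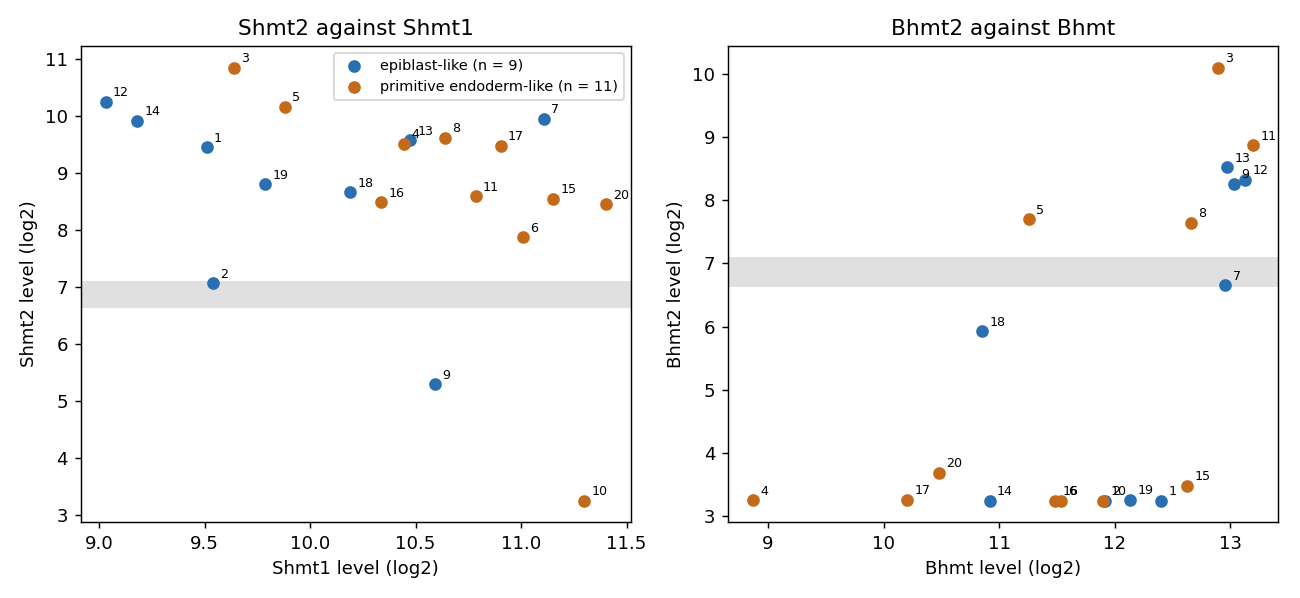
Levels of Shmt2 against Shmt1 (left) and of Bhmt2 against Bhmt (right), both axes log2 of normalised intensity plus 8.48, with each point 1 cell labelled by its replicate number. Blue points are the 9 epiblast-like and orange points the 11 primitive endoderm-like cells, and the grey band spans the floors. The 7 cells above the band for Bhmt2 have Bhmt levels of 11.26 or more, and cells 9 and 10 lie below the band for Shmt2.

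Ahcy, which splits S-adenosylhomocysteine and so relieves the inhibition of methyltransferases, had the narrowest range of the members found in all cells. Its intensity ran from 3273 to 6044 with a median of 5085, a range of 1.85-fold. The SD of 0.23 over cells was reached or undercut by 13.5% of the 3066 genes above the floor in all cells. For its level it was not unusually even. Its variance was 1.46 times the trend for genes of similar level, a ratio reached by 32.8% of 9867 genes. In the epiblast-like cells the level was 12.18, 12.43 and 12.60 at the lowest, median and highest. In the primitive endoderm-like cells it was 11.71, 12.14 and 12.54. The clusters overlapped, but the lowest 7 values, from cells 3, 5, 8, 11, 15, 17 and 20, were all primitive endoderm-like, and the highest of that cluster was in cell 16. The epiblast-like mean was 12.40 ± 0.13 (SD, n = 9) and the primitive endoderm-like mean 12.14 ± 0.24 (SD, n = 11), a difference of 0.26 that is larger than the SD of either cluster. With cells split by Fgf4 it was 0.31, with 12.42 ± 0.13 in the 10 cells with Fgf4 and 12.10 ± 0.21 in the 10 without. Cells 8, 17 and 20, which stood apart, had the 3 lowest levels, and without the 4 such cells the primitive endoderm-like mean was 12.26 ± 0.19 (SD, n = 7) and the difference 0.14.

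Mat2b, the regulatory subunit of the S-adenosylmethionine synthetase whose catalytic subunit is MAT2A, was uneven. Its level was 5.38, 8.15 and 9.73 at the lowest, median and highest in the epiblast-like cells and 3.25, 7.66 and 10.04 in the primitive endoderm-like cells. Cells 5, 7, 19 and 20 were not above the floor, 2 in each cluster, and cell 16 was the highest of all. The difference of 0.48 was within the spread (SD 1.58 and 1.77), and rested on few cells. It was 0.94 with cells split by Fgf4, which moves cell 16 across, 0.06 without cell 20 and 0.13 without cells 4, 8, 17 and 20.

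Shmt1, the cytosolic serine hydroxymethyltransferase that passes a carbon from serine to tetrahydrofolate, leaned towards the primitive endoderm-like cells. The level was 9.03, 9.79 and 11.11 at the lowest, median and highest in the epiblast-like cells, against 9.64, 10.79 and 11.40 in the primitive endoderm-like cells. The 5 lowest cells were 12, 14, 1, 2 and 3, of which 4 are epiblast-like, while cell 7 of that cluster was high at 11.11. The mean was 9.93 ± 0.70 (SD, n = 9) in epiblast-like and 10.68 ± 0.57 (SD, n = 11) in primitive endoderm-like cells, a difference of -0.75 that is slightly larger than either SD. It was -0.74 with cells split by Fgf4, -0.66 without cells 4, 8, 17 and 20, and between -0.89 and -0.63 with any 1 cell left out. Its SD over all cells was 0.72, and 26.3% of the genes found in every cell had an SD at least that large. A pair of further Shmt1 probe sets gave -0.97 and -0.87 and correlated with the one used at r = 0.70 and 0.72 over the 20 cells, while the remaining one was found in 0 cells.

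Shmt2, the mitochondrial isoenzyme, did not follow Shmt1. Its level was 5.29, 9.45 and 10.24 at the lowest, median and highest in the epiblast-like cells and 3.25, 8.59 and 10.84 in the primitive endoderm-like cells. Cells 9 and 10, 1 of each cluster, were not above the floor, and the difference of 0.15 was far within the spread (SD 1.62 and 1.98) and was -0.38 without cell 10 and 0.59 without cell 9. Shmt1 and Shmt2 had r = -0.42 and rho = -0.46 over the 20 cells, with r = -0.33 without the 2 cells farthest from the median of Shmt1 and -0.31 without cells 9 and 10. Within the 9 epiblast-like cells r was -0.26 and rho -0.32. Within the 11 primitive endoderm-like cells, which include cell 10, r was -0.65 and rho -0.79. Over the 20 cells the sign was negative for each of the 3 Shmt1 probe sets that were above the floor. It was also negative for each of the 4 Shmt2 probe sets (r between -0.47 and -0.39 for both genes). Over all cells the relation is a weak one. The Shmt2 probe set used has the suffix x_at, which marks probes that may bind other transcripts. A pair of similar probe sets tracked it at r = 0.99 and 0.93, and the only Shmt2 probe set without that mark was found in 5 cells and had r = 0.66 with it.

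**Figure D3:**
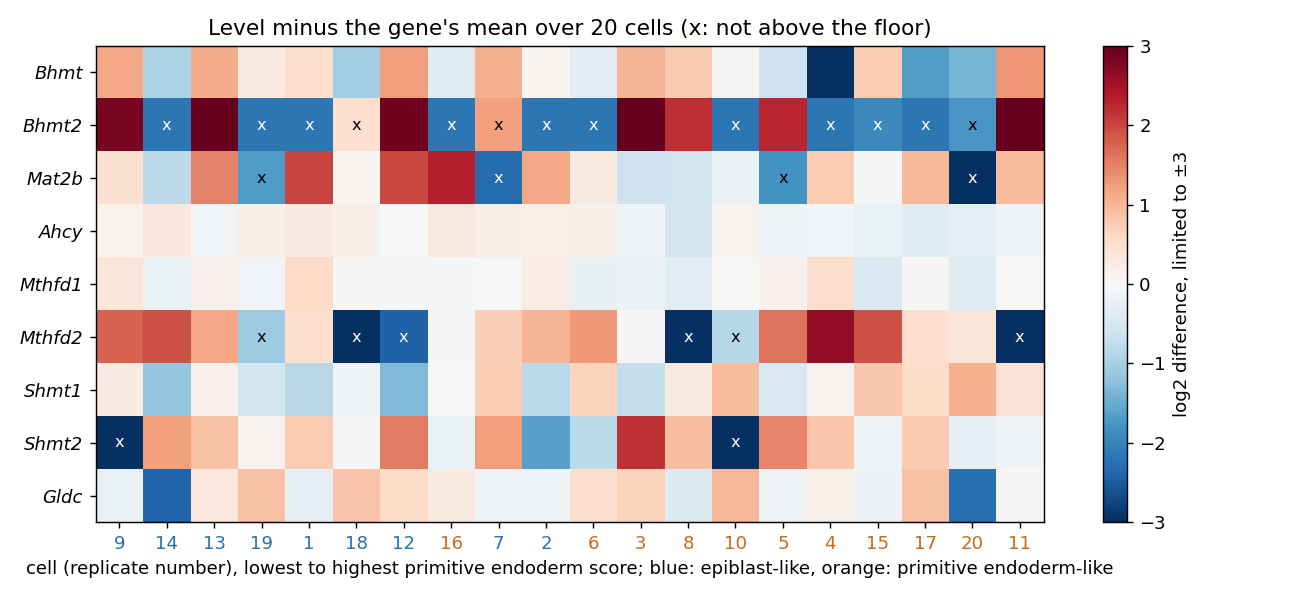
Level of each measured member minus its mean over the 20 cells (colour, log2 units, limited to 3 in either direction), with cells ordered from the lowest to the highest primitive endoderm score. An x marks a cell in which the gene was not above the floor, and cell numbers are blue for epiblast-like and orange for primitive endoderm-like. The Ahcy and Mthfd1 rows are nearly even, the Gldc row is low in cells 14 and 20, and the Bhmt row is lowest in cell 4.

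Gldc, the decarboxylase of the mitochondrial glycine cleavage system, was even in most cells and low in a pair of them. Cells 14 and 20 had an intensity of 326 and 343, against 1310 to 3377 in the other 18 cells. On the log2 scale these were 8.36 and 8.49, against 10.33 to 11.76. Cell 14 is epiblast-like and cell 20 primitive endoderm-like, so the low values do not fall in 1 cluster, and both remained above the floor. The SD was 0.91 over all 20 cells and 0.47 over the other 18. Of the 3066 genes above the floor in all cells, 8.02% had an SD of at least 0.91. The mean was 10.71 ± 0.99 (SD, n = 9) for epiblast-like and 10.81 ± 0.89 (SD, n = 11) for primitive endoderm-like cells, a difference of -0.10, which was -0.05 with cells split by Fgf4, -0.34 without cell 20 and 0.19 without cell 14. The other subunits of the same system that were measured were not low in these cells. Gcsh, the lipoyl carrier, had 11.46 and 11.62 in cells 14 and 20, against 10.21 to 11.88 in the others. Dld, the lipoamide dehydrogenase it shares with pyruvate dehydrogenase, had 9.25 and 9.32, against 7.26 to 10.20.

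Mthfd1, the cytosolic trifunctional folate enzyme, had a narrow range of 2.19-fold in intensity (2189 to 4791). Its level was 11.39, 11.63 and 12.17 at the lowest, median and highest in the epiblast-like cells and 11.14, 11.55 and 12.13 in the primitive endoderm-like cells. The difference of 0.20 was below the SD of either cluster (0.24 and 0.28). All 3 of its probe sets were above the floor in 20 cells and gave differences between 0.13 and 0.23. The one used had r = 0.89 and 0.46 with the others, whose SDs over cells were 0.33 and 0.36. Its SD over cells, 0.27, was reached or undercut by 18.9% of the genes above the floor in all cells. Its variance was 0.65 times the trend for genes of similar level, a ratio reached by 67.6% of 9867 genes.

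Mthfd2, the mitochondrial dehydrogenase and cyclohydrolase known from embryonic and tumour tissue, was patchy. Its level was 3.83, 7.84 and 8.99 at the lowest, median and highest in the epiblast-like cells and 3.25, 7.45 and 9.73 in the primitive endoderm-like cells. It was found in 6 of 9 epiblast-like and 8 of 11 primitive endoderm-like cells, and the 6 cells without it were 8, 10, 11, 12, 18 and 19. The difference of 0.07 was far within the spread (SD 1.86 and 2.13) and ran from -0.31 without cell 8 to 0.48 without cell 18. Its second probe set was found in 6 cells, each of which also had the first, with r = 0.66 between them. The highest level of the probe set used was in cell 4, the cell with the least Bhmt, and Bhmt and Mthfd2 had rho = -0.26 over the 20 cells. Within the 11 primitive endoderm-like cells, which include cell 4, rho was -0.63, and within the 9 epiblast-like cells it was 0.08.

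Between the clusters, 0 of 9 members were at least 2-fold higher in the epiblast-like cells and 0 of 9 at least 2-fold lower, where 11.6% and 7.68% of the 9867 genes were. For 0 members did the clusters fail to overlap, as for 0.152% of those genes. The median difference was 0.20 over the members and 0.04 over all 9867 genes, and the epiblast-like mean was the higher one for 7 of 9 members and for 5308 of 9867 genes. The count was 4 of 9 with lower values set to the floor, 6 of 9 with cells split by Fgf4, and 5 to 7 with any 1 cell left out. Among the 36 pairs of members rho ran from -0.53 (Bhmt2 with Ahcy) to 0.57 (Bhmt with Bhmt2), and its sign was the same over all cells and within both clusters for 15 pairs. Both ends involve Bhmt2, whose cells at the lower limit are ordered by the normalization alone.

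The genes whose order over the 20 cells was most like that of Bhmt were Chfr (rho = 0.78), Gltp (0.76), Sri (0.76), Ccdc130 (0.75) and Ctps (0.74). For Gldc they were Hltf (rho = 0.77), Ssb (0.74), Yy1 (0.73), Rpl22l1 (0.73) and Zfp871 (0.73). These are the highest values in a search of 9867 genes, and none of the 10 is a lineage marker of the lists used here. Ccdc130 was found in 4 cells only, Sri in 9, Zfp871 in 12 and Gltp in 14. Within clusters rho ran from 0.50 to 0.92 over epiblast-like and from 0.49 to 0.95 over primitive endoderm-like cells.

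A list of 48 further genes of the pathway put the members in context. Of these, 41 had a probe set with 1 gene, 28 were found in 3 cells or more, 8 in all 20 cells and 11 in 0 cells. Betaine, once made, can be used or broken down. Dmgdh, next to Bhmt2 in the genome, was above the floor in 17 cells. Chdh, which begins the oxidation of choline to betaine, was above it in 4 cells, Aldh7a1 in 11, Sardh in 3 and Pipox in 2. The betaine transporter gene Slc6a12 and the amino acid and betaine transporter genes Slc6a20a and Slc6a20b were above it in 0 cells. On the folate route to methionine, the synthase gene Mtr was found in 9 cells and its reductase gene Mtrr in 20. Mat1a, the liver counterpart of Mat2a, and Cbs, which begins transsulfuration, were found in 0 cells, and Cth, which completes it, in 17. Of the enzymes that make serine, Psat1 was found in 20 cells, Psph in 13 and Phgdh in 11. A count of 0 cells means not above the floor by 1 probe set, not absence. The 5 listed genes with the highest mean on their own probe sets were Srm (11.44 ± 0.46, SD, n = 20), Gcsh (11.25 ± 0.50), Gart (10.97 ± 0.57), Psat1 (10.75 ± 0.56) and Mtrr (9.54 ± 0.78), which names them and ranks nothing.

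Of the 28, 3 were at least 2-fold higher in the epiblast-like cells and 1 at least 2-fold lower, near the shares of all genes given above. The median difference of the 28 was 0.08. Mthfd1l, the mitochondrial formate-producing synthetase, was lower in the epiblast-like cells, with 7.18 ± 1.47 (SD, n = 9) against 8.64 ± 1.13 (SD, n = 11) in the primitive endoderm-like cells, and was above the floor in 5 of 9 and 11 of 11 cells. Its difference of -1.46 was in size just below the SD of the epiblast-like cells and above that of the primitive endoderm-like cells. The difference was -1.18 with cells split by Fgf4 and -0.97 when lower values were set to the floor. Ahcyl2, a relative of Ahcy, had 8.43 ± 0.95 in the epiblast-like against 7.24 ± 1.15 in the primitive endoderm-like cells (difference 1.18), but -0.08 by the mean of its probe sets. The mitochondrial folate carrier Slc25a32 (6.77 ± 2.05 against 5.65 ± 2.34) and the folate receptor Folr1 (7.42 ± 1.68 against 6.35 ± 1.42) differed by 1.12 and 1.07, within the spread. They were found in 7 of 9 against 4 of 11 and in 6 of 9 against 2 of 11 cells. With cells split by Fgf4 the differences were 1.29 and 1.64, for which no SD is given here. When lower values were set to the floor, the counts of higher and lower genes were 0 and 0, and with any 1 cell left out each ran from 1 to 4.

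**Figure D4:**
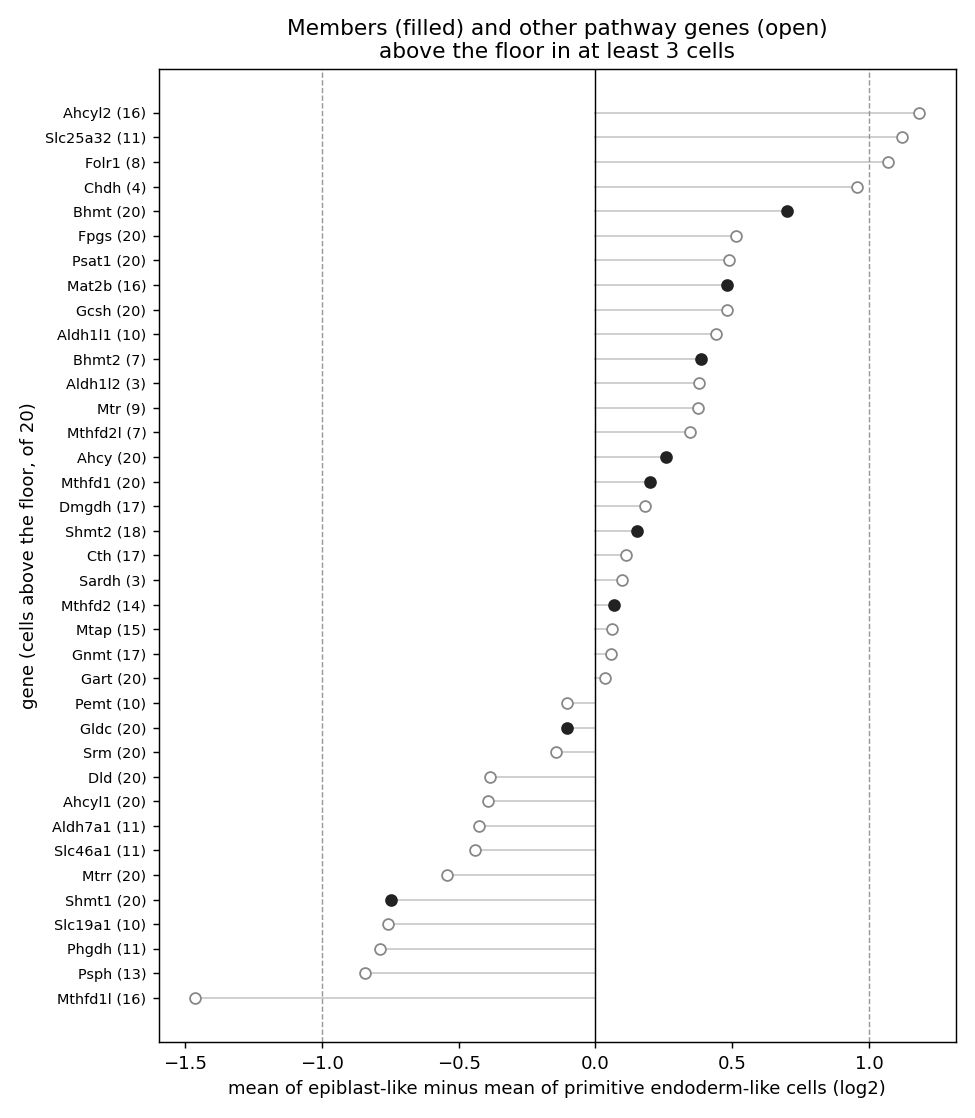
Mean of the 9 epiblast-like minus mean of the 11 primitive endoderm-like cells (x axis, log2) for the 9 measured members (filled) and 28 other pathway genes (open) found in 3 or more cells, with the number of such cells in brackets. Dashed lines mark 2-fold, which no member and 4 other genes pass.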

How the data were processed

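The members and lists were chosen with earlier results of these data known. The authors deposited 1 table of probe set intensity on a linear scale for 20 arrays, with a lower limit of 1. Per the labels' protocols, single-cell cDNA was amplified by PCR and labelled by the Affymetrix one-cycle method. For the intensities, the software, background correction and normalization: not given in the sources used here.

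Of 45037 probe sets without controls, 34945 had 1 gene in GEO's platform annotation, 932 several and 9160 none, and 34741 of the named ones matched RefSeq (GRCm38.p6) by Entrez identifier. The 2%-trimmed means differed by 21.2%, above the limit of 5%, so arrays were quantile normalised, and 8.48, the median 25th percentile, was added before log2. The brightest probe set stood for a gene. Cells were clustered by Ward's method into 2 clusters (scipy 1.17.1, pandas 2.3.3, Python 3.11.15) on 500 genes with the largest variance relative to a running median of 201 genes. Named were all members, the pathway genes found in 5 cells or more with a difference of at least 1, the 5 with the highest mean, and the 5 genes nearest in rank order to each of the 2 members of largest relative variance. Other pathway genes are named by role, chosen after their values were seen. Steps were tested on simulated cells with the same noise for all genes and shifts in bright genes only. That does not cover genes found in only some cells. No doublet caller was run on these individually picked cells. No p-value was computed. The number of arrays limits the precision.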

Additional observations from a re-analysis of the deposited data

How the results depend on the processing

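Alternatives covered the scaling, the probe sets of a gene, the floor, the pseudocount, the clusters and left-out cells. Each cell kept its main cluster unless the clusters themselves were the choice. The other changes of side named above therefore do not enter the differences given here. The member differences are smaller than or close to the spread between single cells, so staying within that spread does not show that they are stable. Of the 9 members, 5 (Bhmt, Mat2b, Ahcy, Mthfd1 and Shmt1) kept the sign of their difference under all 28 settings tried, though that of Bhmt lay between 0.13 and 0.88 and that of Mat2b between 0.06 and 0.94. The sign turned under 5 settings for Bhmt2, 10 for Mthfd2, 3 for Shmt2 and 1 for Gldc. The 28 settings are not independent checks, and most of them left out 1 cell. The mean of all probe sets cannot change a member with 1 probe set. Raising values to the floor cannot change a member found in every cell. The split by Fgf4 and the clusters from lineage markers held the same cells. Pathway genes at least 2-fold higher in epiblast-like cells numbered 3, and 1 by the mean of all probe sets, 0 with values raised to the floor and 1 to 4 with 1 cell left out (1 without cell 2, 6, 10 or 15). Those at least 2-fold lower numbered 1, and 2 by the mean of all probe sets, 2 with the pseudocount from the 10th percentile, 0 with values raised to the floor, 4 without the 4 cells of lowest mean correlation and 1 to 4 with 1 cell left out (2 or more without cell 1, 2, 3, 5, 8, 12, 14, 15, 17, 18 or 19). Over all named genes, the shares of genes at least 2-fold higher and lower were 6.50% and 4.46%, since this adds genes near the floor. The cause of the other changes was not tested. The median member difference lay between -0.01 and 0.30 under these settings and between 0.05 and 0.26 with 1 cell left out. With the floor at the 99th percentile Mat2b was found in 10 cells and Mthfd2 in 9. No paired analysis was possible because all cells form 1 group.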
